A study of Mus musculus with 9 samples.

Results

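The genes described here are the colony-stimulating factors and receptors of macrophages, together with a macrophage surface marker and transcription factors of the lineage. They are Adgre1, Csf1r, Csf1, Il34, Csf2, Csf2ra, Csf2rb, Maf and Spi1, taken by symbol as 9 of the 25652 genes in the authors' deposited table. In the study, talc in saline (2.0 g/kg, 200 µL) was injected across the diaphragm into the left thoracic cavity of wild-type (WT) mice, and poly(A) RNA was sequenced from what the labels call adhesion tissue between chest wall and lungs and, elsewhere, left lung parenchyma attached to the chest. There were 3 libraries from 30 min after talc (labelled day 0), 3 from day 3 and 3 from day 9. The title of the study concerns macrophages that gather on the injured lung surface and adhesion. Every group had received talc, the 30 min group included, and no untreated or vehicle group was analysed here, so that effects of talc and of the injection itself cannot be told apart. The labels used here name no strain or age. Whether each library was made from its own mouse is also not stated, so the spread behind every p-value here may be partly technical.

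Macrophages and their precursors need signals through CSF1R, a receptor tyrosine kinase, to survive, divide and mature. CSF1R is bound by the cytokine CSF1 and by interleukin-34, which is structurally related to it but shares little sequence with it. Csf2 encodes GM-CSF, a cytokine that the lung needs to mature its alveolar macrophages, and its receptor joins the ligand-binding alpha chain encoded by Csf2ra to the signalling beta common chain encoded by Csf2rb. PU.1, encoded by Spi1, is the transcription factor that sets up myeloid fate, and MAF is a transcription factor active in mature resident macrophages and in other cell types.

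Library totals were between 12769059 and 18701063 counts. The tissue content differed between libraries of a day. The summed level of 8 alveolar type 2 genes was 4808 to 5264 CPM at 30 min, 162, 5720 and 101 CPM at day 3 (replicates 1, 3 and 4), and 601 to 2676 CPM at day 9. The sum of 8 cartilage and bone genes was highest in day 0 replicate 3, day 3 replicate 1 and day 9 replicate 1 (714, 1682 and 2648 CPM) and between 131 and 460 CPM elsewhere. CPM here are counts divided by each library's effective size and scaled to 1000000. Day means are given as mean ± SD over 3 libraries, and values by library follow the order of replicates 1, 2 and 3 at 30 min and 1, 3 and 4 at days 3 and 9. These are bulk samples, so fewer cells of a type and less RNA per cell cannot be told apart.

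Of the 9 genes, 8 passed the filter on low counts and Csf2 did not. At day 3, 6 of the 8 were higher than at 30 min and 1, Il34, was lower, by edgeR's quasi-likelihood test with a Benjamini-Hochberg adjusted p under 0.05 over all genes tested. Among all 14794 genes tested, 12.9% were higher and 3.29% lower by the same rule, 16.2% in either direction. At day 9, the same 6 genes were higher than at 30 min and none was lower, against 15.2% and 5.54% of all genes, 20.7% in either direction. Between day 3 and day 9 none of the 8 passed, where 5.19% of all genes were higher and 3.66% lower, 8.85% together. In that comparison 3 of the 8 had an unadjusted p under 0.05, and DESeq2 called 2 of them, Adgre1 and Il34, while limma-voom called 0 (3 with an unadjusted p under 0.05). These shares depend on single libraries: 79.7% of all calls at day 3 against 30 min were higher, but 49.3% without day 3 replicate 3, and at day 9 against 30 min 73.3% and 55.7%. Libraries of different times often did not overlap in genes at large: every day 3 library lay above every 30 min library in 24.2% of genes and below in 12.9%. At day 9 against 30 min these shares were 29.3% and 28.2%, and at day 9 against day 3 14.4% and 14.1%. The median log2 fold change of the 8 genes was 1.33 at day 3 and 1.64 at day 9 against 30 min, where the median over all genes tested was 0.05 and 0.01.

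**Figure D1:**
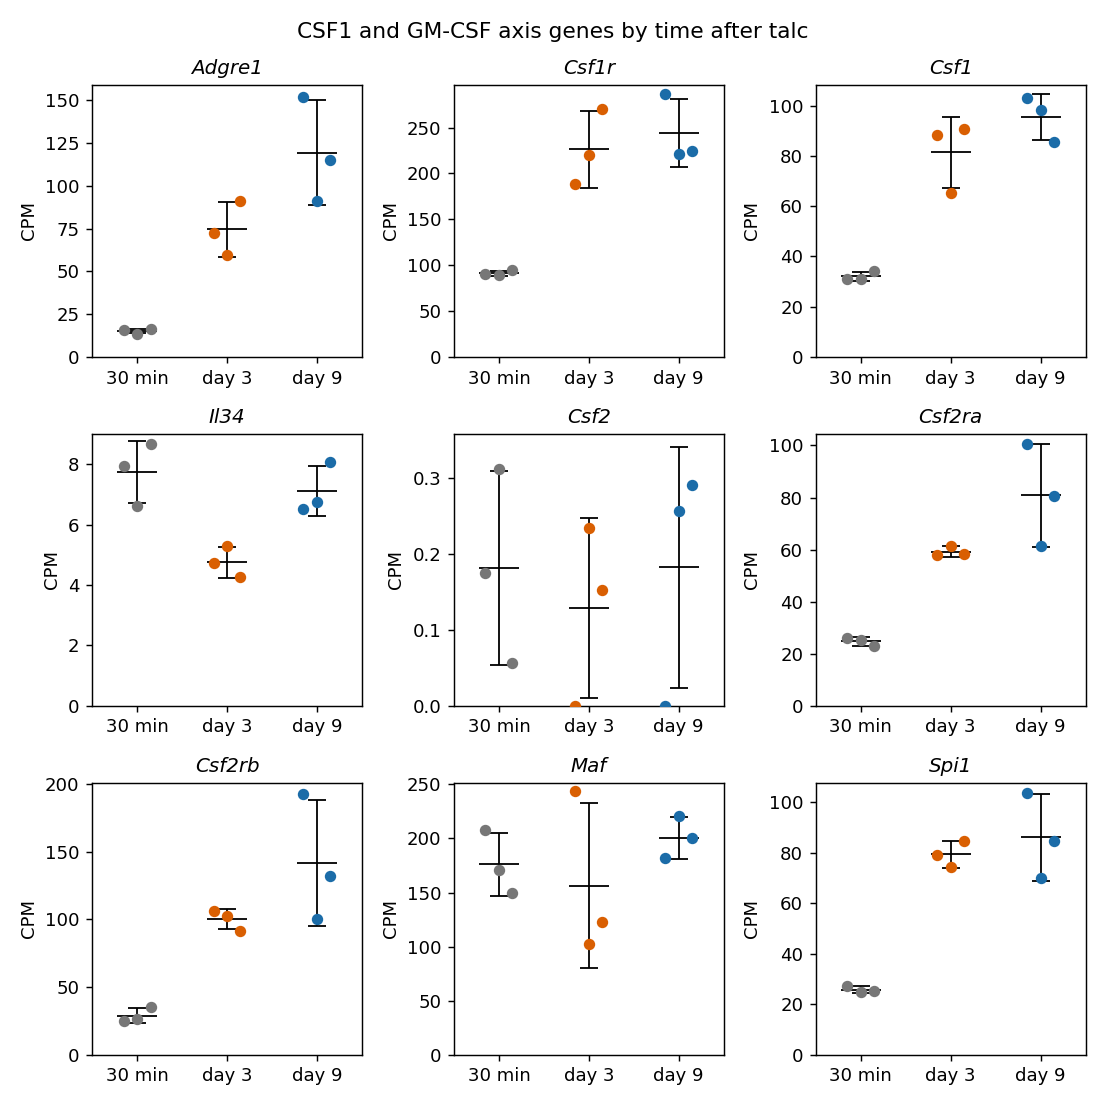
Level of each gene in CPM (vertical axis, from 0) in the 3 libraries of each time after talc (points), with the mean and SD (bars). Adgre1, Csf1r, Csf1, Csf2ra, Csf2rb and Spi1 lie higher at days 3 and 9 than at 30 min in every library, Il34 is lowest at day 3, Maf overlaps between times, and Csf2 reaches at most 0.312 CPM.

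Adgre1 encodes F4/80, an adhesion-type receptor used as the surface marker of mouse macrophages. Its level was 15.6, 13.7 and 16.15 CPM in the 30 min libraries, 72.4, 59.7 and 91.2 CPM at day 3, and 151.9, 91.24 and 114.8 CPM at day 9. No library of 30 min overlapped those of a later day, and the highest day 3 library and the lowest day 9 library were almost level. The gene was 4.91-fold higher at day 3 (log2 fold change 2.30, SE 0.22, adjusted p = 0.000634) and 7.87-fold higher at day 9 (2.98, SE 0.23, adjusted p = 0.000179). The order of its levels was 30 min, day 3, day 9. The step from day 3 to day 9, 1.60-fold, did not pass (0.68, SE 0.21, adjusted p = 0.0793). It passed with the mean of the alveolar type 2 genes as a covariate (0.89, edgeR adjusted p = 0.0137) and by DESeq2 (0.70, adjusted p = 0.0234). Over all alternatives the adjusted p was between 0.0137 and 0.433.

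Csf1r was already abundant 30 min after talc and rose less. It stood at 90.5, 88.9 and 94.6 CPM at 30 min, at 188, 219.8 and 270.6 CPM at day 3, and at 286.5, 221.6 and 223.9 CPM at day 9. The 30 min libraries lay close together and below all later ones, while days 3 and 9 overlapped. The change was 2.48-fold at day 3 (log2 fold change 1.31, SE 0.16, adjusted p = 0.00188) and 2.67-fold at day 9 (1.42, SE 0.16, adjusted p = 0.00067). Day 9 and day 3 differed by 0.11 on the log2 scale with an SE of 0.16 (adjusted p = 0.721), and the sign turned without day 3 replicate 1 (-0.0075).

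Among the ligands of the receptor, Csf1 rose and Il34 did not. Csf1 was at 30.9, 31.0 and 34.3 CPM at 30 min, at 88.3, 65.2 and 90.8 CPM at day 3, and at 102.9, 98.3 and 85.5 CPM at day 9. Its libraries of days 3 and 9 overlapped and all stood above those of 30 min. It was 2.54-fold higher at day 3 (log2 fold change 1.34, SE 0.14, adjusted p = 0.00102) and 2.98-fold higher at day 9 (1.58, SE 0.15, adjusted p = 0.000314).

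Il34 was a low transcript, with 56 to 154 reads in a library. It stood at 7.96, 6.62 and 8.67 CPM at 30 min, at 4.73, 5.29 and 4.26 CPM at day 3, and at 6.52, 6.77 and 8.08 CPM at day 9. The day 3 libraries lay below all others, and those of day 9 overlapped those of 30 min. At day 3 it was 1.63-fold lower (log2 fold change -0.70, SE 0.19, adjusted p = 0.0377), and at day 9 the difference from 30 min was -0.12 (SE 0.19, adjusted p = 0.665). The day 3 call was not stable: it held without day 3 replicate 3 or day 9 replicate 1 and ended without any of the other 7 libraries, up to adjusted p = 0.128 without day 0 replicate 3. Over all alternatives its adjusted p was between 0.00419 and 0.227, and the authors' deposited table gives an FDR of 0.243.

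Per kilobase of exon, the scale on which different genes can be compared, Csf1 was above Il34 at each time. Csf1 was at 6.07 ± 0.36 CPM per kilobase at 30 min, 15.4 ± 2.68 at day 3 and 18.1 ± 1.71 at day 9. Il34 was at 3.96 ± 0.53, 2.43 ± 0.26 and 3.64 ± 0.43 CPM per kilobase at the same times. The receptor gene Csf1r was above both ligands, at 15.8 ± 0.51, 39.2 ± 7.22 and 42.3 ± 6.38 CPM per kilobase. Exon lengths are those of GENCODE M21, which may differ from the annotation the authors counted on.

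The GM-CSF transcript was close to absent, while both chains of its receptor rose. Csf2 had 3, 5 and 1 reads in the 30 min libraries, 0, 4 and 2 reads at day 3, and 0, 5 and 4 reads at day 9. A count of 0 allows up to 0.187 CPM in day 3 replicate 1 and up to 0.217 CPM in day 9 replicate 1, a limit that covers counting error only. A change in Csf2 was not detectable at this depth. With no filter on low counts, its adjusted p was 0.835 at day 3 and 0.996 at day 9 against 30 min.

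Csf2ra was at 26.2, 25.4 and 22.9 CPM at 30 min, at 57.9, 61.6 and 58.2 CPM at day 3, and at 100.6, 61.3 and 80.5 CPM at day 9. The day 3 libraries were close together and the day 9 libraries spread more widely, with replicate 3 inside the day 3 range. It was 2.39-fold higher at day 3 (log2 fold change 1.26, SE 0.17, adjusted p = 0.00251) and 3.26-fold higher at day 9 (1.70, SE 0.17, adjusted p = 0.000395). From day 3 to day 9 the difference was 0.45 (SE 0.16, adjusted p = 0.124), which passed when day 9 replicate 3 was left out (0.0429, range with every alternative 0.0429 to 0.51).

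Csf2rb rose as well. It stood at 24.8, 26.2 and 35.1 CPM at 30 min, at 106.5, 102.7 and 91.7 CPM at day 3, and at 192.7, 100.5 and 132.3 CPM at day 9. Again the 30 min libraries were lowest, days 3 and 9 overlapped, and day 9 replicate 1 was highest. The change was 3.49-fold at day 3 (log2 fold change 1.80, SE 0.24, adjusted p = 0.00248) and 4.94-fold at day 9 (2.30, SE 0.24, adjusted p = 0.000486). Mice carry a close copy of this gene, Csf2rb2, whose product serves the interleukin-3 receptor. The longest open reading frames of both genes were identical at 95.2% of 2631 aligned bases, so reads may be shared between them and their separate values are uncertain. Csf2rb2 itself was 3.72-fold higher at day 3 (adjusted p = 0.00944) and 7.31-fold higher at day 9 (adjusted p = 0.000934).

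Promoter stretches of 3 of the 9 genes were searched, Csf1, Csf2 and Csf2ra. The other genes, Csf1r among them, were not searched. The stretches of Csf2ra and Csf1, which both rose, are shown because PU.1, whose own gene rose with them, binds a purine-rich motif. They are the 250 bases before the RefSeq start of each gene in GRCm38.p6, Csf2ra at chr19:61228419-61228668 and Csf1 at chr3:107760470-107760719, both on the minus strand and written 5′ to 3′. Capitals mark GAGGAA, the letters searched for PU.1, on either strand.
Csf2ra: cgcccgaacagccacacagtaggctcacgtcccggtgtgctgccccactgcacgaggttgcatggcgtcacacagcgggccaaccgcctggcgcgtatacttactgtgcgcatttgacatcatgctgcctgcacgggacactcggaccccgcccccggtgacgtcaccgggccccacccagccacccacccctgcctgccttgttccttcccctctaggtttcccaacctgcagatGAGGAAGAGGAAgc
Csf1: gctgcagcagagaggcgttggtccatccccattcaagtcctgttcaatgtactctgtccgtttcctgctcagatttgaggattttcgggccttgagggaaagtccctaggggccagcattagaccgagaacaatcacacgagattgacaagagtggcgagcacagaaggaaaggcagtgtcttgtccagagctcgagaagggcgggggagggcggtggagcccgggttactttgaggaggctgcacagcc
The Csf2ra stretch held 2 matches side by side, not overlapping, which began 14 and 8 bases before the start. The Csf1 stretch held none. Of 32851 promoter stretches of this length, 23.3% held the motif at least 1 time. The letters TGCTGA, searched for MAF, were in neither stretch and in 16.1% of all. These matches describe letters only, and whether a factor bound there was not measured.

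Of the transcription factors, Spi1 rose and Maf did not pass. Spi1 was at 27.3, 25.0 and 25.2 CPM at 30 min, at 79.1, 74.3 and 84.9 CPM at day 3, and at 103.9, 69.85 and 84.6 CPM at day 9. All libraries of days 3 and 9 stood above 30 min and overlapped each other. It was 3.08-fold higher at day 3 (log2 fold change 1.62, SE 0.15, adjusted p = 0.000556) and 3.33-fold higher at day 9 (1.74, SE 0.15, adjusted p = 0.000239), with 0.12 (SE 0.14, adjusted p = 0.66) between them.

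Maf was at 207.7, 171 and 149.5 CPM at 30 min, at 243.5, 102.3 and 122.9 CPM at day 3, and at 181.8, 220.4 and 200 CPM at day 9. Day 3 replicate 1 was the highest of all 9 libraries, while the other day 3 libraries were the lowest. Its log2 fold change was -0.17 at day 3 (SE 0.30, adjusted p = 0.709) and 0.19 at day 9 (SE 0.30, adjusted p = 0.68). Without day 3 replicate 1 the day 3 difference was -0.64 and passed (adjusted p = 0.0483, within 0.0483 to 0.98 over all alternatives), as did day 9 against day 3 (0.83, adjusted p = 0.0368, within 0.0368 to 0.735). That library was also the day 3 library with the highest cartilage and bone sum, 1682 CPM, against 131 and 175 CPM in the others. The part of this tissue in the level of Maf was not tested.

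**Figure D2:**
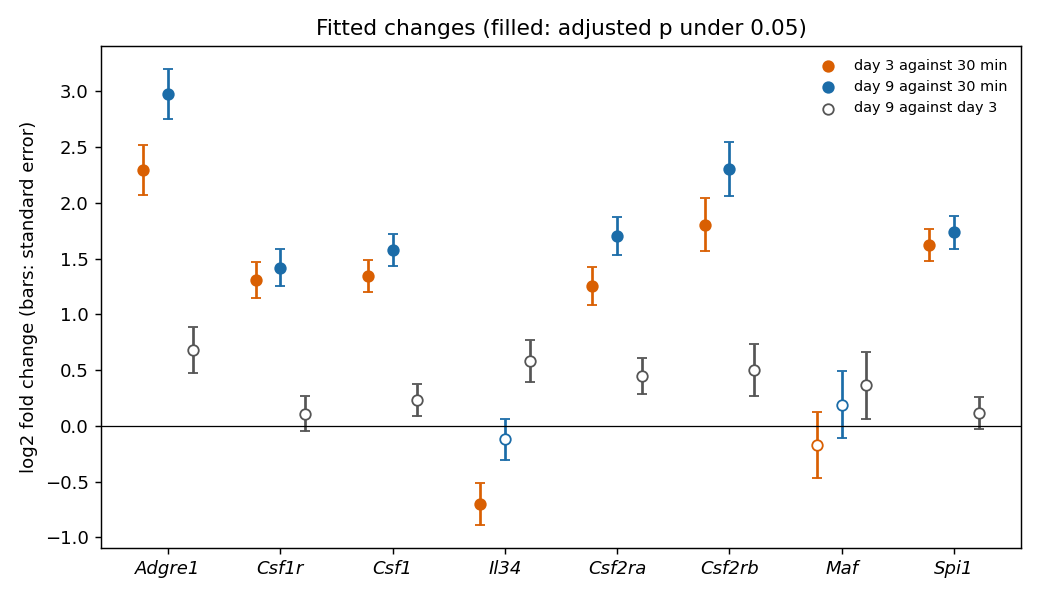
Fitted log2 fold changes (vertical axis) of the 8 tested genes, with standard errors (bars), for day 3 against 30 min, day 9 against 30 min and day 9 against day 3. Filled points passed at an adjusted p under 0.05: 7 genes at day 3 and 6 at day 9 against 30 min, and 0 between day 3 and day 9.

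The calls of Adgre1, Csf1r, Csf1, Csf2ra, Csf2rb and Spi1 at days 3 and 9 against 30 min held without any 1 library. They also held with the mean of the alveolar type 2 genes as a covariate, and without the 3 libraries richest in cartilage transcripts, an alternative chosen after seeing the data. With the replicate number as a block, all 6 calls held at day 9. At day 3 only those of Adgre1 and Spi1 did, and Csf1r, Csf1, Csf2ra and Csf2rb missed (edgeR adjusted p of 0.0561 to 0.0813). The authors' deposited table calls the same 6 genes, with log2 fold changes of 2.30 for Adgre1, 1.31 for Csf1r and 1.62 for Spi1 at day 3.

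Whether paired genes changed by the same factor was tested by ratios of counts within each library, where library size cancels. Csf1r and Adgre1 both rose, as did Csf2rb and Csf2ra, while Il34 and Maf, set against Csf1 and Spi1, did not. The ratios use the same counts as the tests of each gene above and are not separate support for them. For 4 pairs of genes the log2 ratio was compared between the 3 times by an exact permutation test of the F statistic over all 1680 arrangements, with p-values adjusted over the 4 pairs. The smallest p that this design allows is 0.00357. The ratio of Csf1r to Adgre1 was 5.78, 6.49 and 5.85 in the 30 min libraries, 2.59, 3.68 and 2.97 at day 3, and 1.89, 2.43 and 1.95 at day 9. The libraries of the 3 times did not overlap, and the order was 30 min, day 3, day 9 from high to low. On the log2 scale the mean ratio was 1.54 lower at day 9 than at 30 min. The exact permutation p over the 3 times was 0.00357 (adjusted p = 0.0143). For this and the other ratios, differences between pairs of times are values only and were not tested.

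The ratio of Csf1 to Il34 went the other way. It was 3.87, 4.67 and 3.95 at 30 min, 18.5, 12.3 and 21.1 at day 3, and 15.7, 14.5 and 10.5 at day 9. All later libraries lay above those of 30 min and overlapped each other. Its mean log2 ratio was 2.02 higher at day 3 and 1.69 higher at day 9 than at 30 min. Over the 3 times the exact permutation p was 0.0107 (adjusted p = 0.0214).

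The ratio of Spi1 to Maf was 0.131, 0.147 and 0.169 at 30 min, 0.325, 0.726 and 0.691 at day 3, and 0.571, 0.317 and 0.423 at day 9. It was lowest in the 30 min libraries, and over the 3 times the exact permutation p was 0.0179 (adjusted p = 0.0238). The ratio of Csf2rb to Csf2ra was 0.949, 1.03 and 1.54 at 30 min, 1.58 to 1.84 at day 3 and 1.64 to 1.92 at day 9 (exact permutation p = 0.0286, adjusted p = 0.0286). Day 0 replicate 3 lay just below the later range, and the exact permutation p rose above 0.05 without any 1 library of day 3 or day 9, up to 0.075 without day 3 replicate 3.

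**Figure D3:**
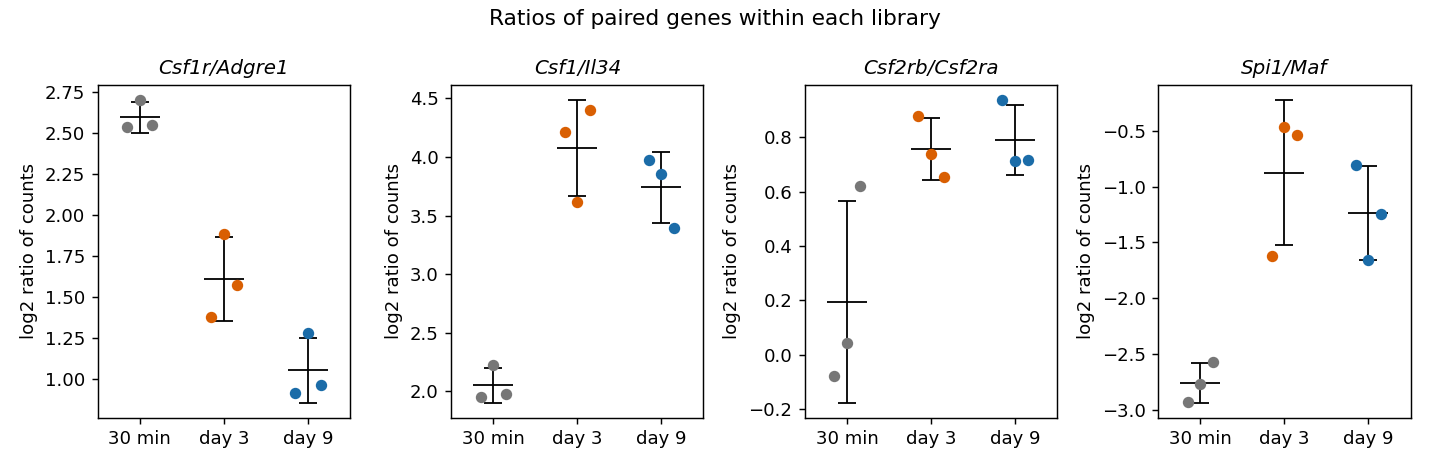
Log2 ratio of the read counts of paired genes (vertical axis, a separate range in each panel) in each library (points), with mean and SD of each time after talc (bars). The Csf1r to Adgre1 ratio is lower at each later time, from a mean of 2.59 to 1.61 and 1.05, and the Csf1 to Il34 ratio goes from 2.05 to 4.08 and 3.74.

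Other macrophage transcripts moved with these genes. Of 12 core macrophage markers, 10 rose at day 3 and 11 at day 9 against 30 min and none fell, with median log2 fold changes of 2.22 and 2.18. Their summed level was 1464 to 1637 CPM at 30 min, 2919 to 3841 CPM at day 3 and 4906 to 6451 CPM at day 9. None of the 12 was at 0 at any time. As a background for this list and those below, 12.9% of all genes tested rose and 3.29% fell at day 3. At day 9, 15.2% rose and 5.54% fell against 30 min. Cells other than macrophages also express several of the 9 genes. Of 8 neutrophil markers 0 passed in any comparison by edgeR, limma-voom or DESeq2, and 0 had an unadjusted p under 0.05. Their sums were 877 to 1606 CPM at 30 min, 2516, 2223 and 260 CPM at day 3, and 538 to 1181 CPM at day 9. With day 3 libraries so far apart, the tests do not show that neutrophil transcripts kept their level. Of 8 monocyte markers 4 rose at day 3 and 3 at day 9 against 30 min, and their sums were 619 to 766, 903 to 2091 and 577 to 698 CPM. Of 8 fibroblast markers 1 rose and 1 fell at day 3 and 5 rose at day 9, with sums of 5844 to 8483, 4276 to 11360 and 18000 to 19930 CPM. Endothelial markers, of which 1 of 8 fell at day 3 and 2 at day 9, summed to 1750 to 1943, 648 to 1661 and 731 to 1102 CPM. Counts of 1 of 8 at day 3 are not far from the shares over all genes. The part of each cell type in the levels of the 9 genes was not tested.

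Genes listed around CSF1R signalling and the binding of its ligands changed in part. Of 14 genes for its adaptors, kinases and other ligand-binding partners, 6 rose and 1 fell at day 3 and 8 rose and 1 fell at day 9 against 30 min, with medians of 0.34 and 0.52 on the log2 scale. Against these counts stand the background shares given above, 12.9% rising and 3.29% falling at day 3, and 15.2% and 5.54% at day 9. Tyrobp, the adaptor DAP12 that couples myeloid receptors to the kinase SYK, was 2.68-fold higher at day 3 (36.0 ± 1.37 against 96.3 ± 3.36 CPM, adjusted p = 0.00404) and 4.13-fold higher at day 9 (149 ± 51.4 CPM, adjusted p = 0.00047). Fgr, a myeloid kinase of the Src family, was at 16.1 ± 2.70, 52.4 ± 1.23 and 29.2 ± 5.84 CPM at 30 min, day 3 and day 9. It rose 3.25-fold at day 3 (adjusted p = 0.000802) and stayed 1.81-fold above 30 min at day 9 (adjusted p = 0.00956). Its fall from day 3 to day 9 (adjusted p = 0.0224) ended when day 3 replicate 1 or day 9 replicate 1 or 4 was left out (range with every alternative 0.000377 to 0.116).

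Pik3r1, a regulatory subunit of the lipid kinase PI3K, was 1.62-fold lower at day 9 than at 30 min (136 ± 17.7 against 83.9 ± 8.01 CPM, adjusted p = 0.00708). Ptprz1, a phosphatase that interleukin-34 can also bind, was at 6.49 ± 1.14 CPM at 30 min and 1.99 ± 1.37 CPM at day 3. It was 3.22-fold lower (adjusted p = 0.0401), but the call held only without day 3 replicate 3 or 4 among the 9 fits that left out 1 library, within 0.00222 to 0.223 over all alternatives. Sdc1, a proteoglycan that also binds interleukin-34, was at 81.8 ± 4.58, 65.1 ± 37.5 and 144 ± 5.31 CPM and did not pass (adjusted p = 0.518 at day 3 and 0.122 at day 9).

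In the family of the beta common chain, 3 of 9 tested genes rose and 1 fell at day 3, and 2 rose and 2 fell at day 9 against 30 min. The shares over all genes tested were 12.9% and 3.29% at day 3, and 15.2% and 5.54% at day 9. Il3ra, the alpha chain of the interleukin-3 receptor, stood at 9.59 ± 2.35, 17.6 ± 2.12 and 33.4 ± 5.55 CPM at the 3 times. It was 3.48-fold higher at day 9 than at 30 min (adjusted p = 0.000609). Cish, a feedback inhibitor induced through STAT5, was lower, at 74.1 ± 11.4 CPM at 30 min, 21.7 ± 9.59 at day 3 and 18.7 ± 9.18 at day 9. Its fall was 3.96-fold at day 9 (adjusted p = 0.0128) and 3.41-fold at day 3 (adjusted p = 0.0262). The day 3 call ended when any day 0 library or day 3 replicate 1 or 4 was left out (range with every alternative 0.000271 to 0.133). The median log2 fold change of the 9 genes was 0.43 at day 3 and 0.23 at day 9.

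Of 8 genes for related growth factors and receptors of blood cells, 1 rose and 1 fell at day 3 and 1 fell at day 9 against 30 min. Among all genes tested, 12.9% rose and 3.29% fell at day 3, and 5.54% fell at day 9. Flt3l, the ligand that supports dendritic cell precursors, was at 12.3 ± 0.88, 6.15 ± 1.56 and 7.72 ± 0.80 CPM. It fell 2.00-fold at day 3 (adjusted p = 0.0138), a call lost without day 0 replicate 2 or 3 and within 7.5e-05 to 0.12 over all alternatives. Csf3, which encodes the neutrophil factor G-CSF, had 3, 60 and 2 reads in all at 30 min, day 3 and day 9.

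**Figure D4:**
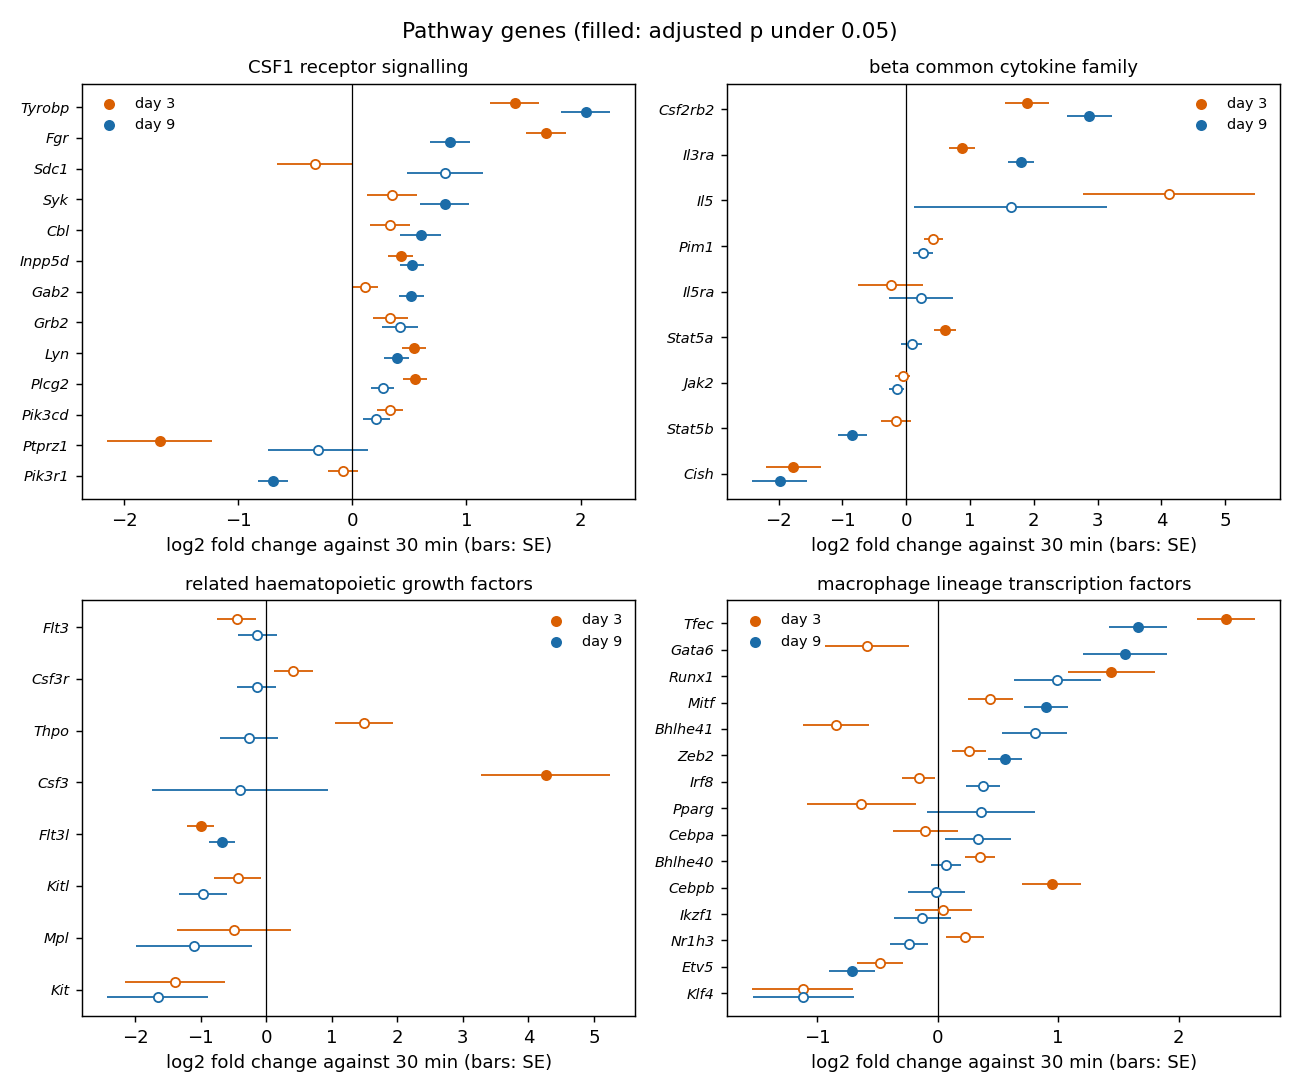
Log2 fold change against 30 min (horizontal axis) with its standard error (bars) for genes of 4 lists around the CSF1 and GM-CSF receptors, at day 3 and day 9. Filled points passed at an adjusted p under 0.05. Tyrobp, Fgr, Csf2rb2 and Tfec lie to the right at both times and Cish and Flt3l to the left.

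Among 16 transcription factors of the macrophage lineage, 3 rose and none fell at day 3, and 4 rose and 1 fell at day 9 against 30 min. Their median was -0.03 at day 3 and 0.35 at day 9, against 1.62 and 1.74 for Spi1. Over all genes tested, 12.9% rose and 3.29% fell at day 3, and 15.2% rose and 5.54% fell at day 9, so that these counts are not far from those shares. Tfec, a factor of the MiT family found in macrophages, rose 5.26-fold at day 3 (1.52 ± 0.33 against 8.02 ± 1.27 CPM, adjusted p = 0.000794) and was 3.17-fold above 30 min at day 9 (adjusted p = 0.00194). Its relative Mitf was 1.86-fold higher at day 9 (adjusted p = 0.0101). Gata6, known from resident macrophages of serous cavities and also from mesothelial and other cells, was at 14.0 ± 4.57, 9.28 ± 3.41 and 41.0 ± 12.5 CPM. It was 4.41-fold higher at day 9 than at day 3 (adjusted p = 0.0121). Its 2.94-fold rise over 30 min (adjusted p = 0.0144) ended when day 0 replicate 1 or 2 or day 9 replicate 3 or 4 was left out (range with every alternative 0.000256 to 0.0642). The summed level of 6 mesothelial markers was 50.9 to 438 CPM at day 9 against 40.6 to 136 CPM at 30 min and 22.6 to 76.9 CPM at day 3, and its part in the level of Gata6 was not tested.

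Without the 3 libraries richest in cartilage transcripts, the calls of Pik3r1 and Mitf at day 9 against 30 min ended. That of Gata6 at day 9 against day 3 ended as well. Their edgeR adjusted p were 0.0924, 0.0691 and 0.0529, in ranges of 4.66e-06 to 0.0924, 0.000645 to 0.0868 and 2.1e-07 to 0.0529. Calls described above as unstable ended there too: Il34, Ptprz1 and Flt3l at day 3 (0.227, 0.223 and 0.12) and Fgr at day 9 against day 3 (0.0949).

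Irf8, a partner of PU.1 in monocytes, was at 36.6 ± 4.16, 32.8 ± 1.68 and 47.6 ± 8.15 CPM (adjusted p = 0.458 at day 3 and 0.0906 at day 9). Pparg, which GM-CSF induces in alveolar macrophages, was at 12.3 ± 5.59, 7.93 ± 2.55 and 15.8 ± 8.55 CPM (adjusted p = 0.357 and 0.589). Of 8 alveolar macrophage markers 1 rose at day 3, and 1 rose and 1 fell at day 9. Over all genes tested, 12.9% rose at day 3, and 15.2% rose and 5.54% fell at day 9, so that these counts are not far from those shares. A p that misses the threshold does not show that Irf8, Pparg or these markers kept their level.

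For each tested gene, the transcripts with the most similar course were taken as those with the smallest root mean square difference in centred log2 CPM over the 9 libraries. The nearest to Spi1 was Irf5, an interferon regulatory factor, with a difference of 0.0797 and 15.2 ± 0.74, 44.9 ± 5.48 and 48.9 ± 12.8 CPM at 30 min, day 3 and day 9. Nearest to Adgre1 were Slc15a3, a lysosomal peptide transporter (0.163), Ctsl, the protease cathepsin L (0.166), and Matk, a kinase (0.174). Slc15a3 stood at 9.53 ± 1.43, 43.0 ± 3.16 and 82.4 ± 28.6 CPM. Csf1r was closest to Txn1, thioredoxin (0.111), Susd3 (0.121) and Cndp2 (0.128), and Txn1 was at 64.6 ± 3.67, 151 ± 34.6 and 158 ± 17.0 CPM. Stab1, a scavenger receptor of macrophages and sinusoidal endothelium, was nearest to Csf1 (0.12), with 91.2 ± 5.43, 221 ± 50.7 and 272 ± 27.8 CPM. Csf2ra was closest to Sh3bgrl3 (0.0982), and Csf2rb to Plin2 (0.136), which coats lipid droplets, and to Cd53 (0.151), a leukocyte tetraspanin. Il34 was closest to Gadd45b, a stress-induced gene (0.118), which was at 39.9 ± 3.17, 25.7 ± 3.40 and 33.6 ± 0.62 CPM. For Maf the nearest gene was Tenm3 (0.153), where the spread of Maf itself over the libraries was 0.386. The likeness describes these libraries only.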

How the data were processed

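The authors deposited 1 table with 25652 genes (3 lines were emptied for this work). Per its headers it holds read counts, CPM, RPKM and TPM per library. The deposited TPM and RPKM values were equal to each other and to counts scaled to a library total of 1000000, with no division by length, and were not used further. The deposited CPM, a signal scaled by the authors to an effective library size, were not used either. The authors' log2 fold changes and FDR-adjusted p-values, per the file headers, were copied for the 9 genes. Aligner, counter and strand setting: not given in the sources used here. GRCm38 and mm10 appear in the submitters' processing notes, but only 551 of 25597 identifiers shared with GENCODE M21 had the same coordinates there, so none from the table are given.

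The deposited counts were filtered with filterByExpr (14794 genes left), scaled by TMM and tested with the quasi-likelihood F test of edgeR 4.0.16 in R 4.3.3, with 1 mean per day over all 9 libraries and 6 residual degrees of freedom. Tests were two-sided. SE is the absolute log2 fold change divided by the square root of F. Ratios used a pseudocount of 0.5. The procedure was tested on simulated counts. Within a day, libraries differed by 8.61 to 153 chi-square per degree of freedom, so none was the same library deposited again; this does not show whether libraries shared a mouse. Alternatives used limma 3.58.1, DESeq2 1.42.0, RLE factors, no filter, fewer libraries, a replicate block and an alveolar covariate. Genes named from the lists passed the test with days that did not overlap, up to 4 per list and comparison by size of change. Others from these lists are named with values where they bear on the ligands or on PU.1 and MAF, chosen after their values were seen. The nearest genes are up to 3 per gene with a mean of at least 1 CPM, centred on log2 CPM with a prior count of 2. The genes and lists were chosen with earlier results of these data known. Promoters come from RefSeq (GRCm38.p6). Figures were drawn with matplotlib 3.10.9. Some genes of the lists are counted but not reported by name here.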

Additional observations from a re-analysis of the deposited data

How the results depend on the processing

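Over 17 alternatives for each of 24 gene-by-comparison values of the 8 tested genes, 380 of 408 kept direction and side of the threshold. Whether the replicate numbers pair the samples was not settled. Deviations of same-numbered libraries correlated between -0.248 and 0.472, and libraries of differing number were not set beside them. With the number as a replicate block, 214, 900 and 127 of all genes passed at day 3 and day 9 against 30 min and at day 9 against day 3, in place of 2390, 3066 and 1310. Of the 9 genes 2 passed at day 3 with that block, Adgre1 and Spi1, and Csf1r, Csf1, Csf2ra and Csf2rb missed with adjusted p of 0.0813, 0.0561, 0.0561 and 0.0779. Tyrobp, Fgr and Csf2rb2 at day 3 missed too (0.0654, 0.0539 and 0.139). Fits of only the 6 libraries compared called 924, 6332 and 258 genes. Without the 3 libraries richest in cartilage transcripts, an alternative chosen after seeing the data, 734, 1344 and 172 passed. There Il34 at day 9 against 30 min turned to 0.0209, and Csf1r and Spi1 at day 9 against day 3 turned to -0.14 and -0.0461. With the alveolar covariate 4978 genes passed at day 9 against 30 min, and DESeq2 called 2401 at day 9 against day 3. Both called 2 of the 9 genes at day 9 against day 3, in place of 0. Of the calls at day 3, 79.7% were higher, but 63.6% with DESeq2, 60.2% with the covariate and 49.3% without day 3 replicate 3. At day 9 these shares were 73.3%, 61.5%, 55.5% and 55.7%, and 52.4% in the fit of 6 libraries. Leaving out 1 library gave 818 to 5179, 1661 to 5018 and 355 to 4098 calls, the highest of each without day 3 replicate 3, and the lowest without day 0 replicate 1 for both comparisons with 30 min and day 9 replicate 4 for the last. It gave 6 to 7, 6 to 6 and 0 to 1 of the 9 genes. Csf1r at day 9 against day 3 ranged from -0.0075 to 0.26. For the ratio of Csf2rb to Csf2ra the exact permutation p ranged from 0.025 to 0.075. The other 3 ratios kept a p under 0.05 in every such fit, and all 4 with a pseudocount of 2. Of 573 alternatives for other genes chosen from the lists, 161 lost the call and none turned. The causes were not tested. Depth limits Csf2, which had at most 5 reads in a library.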

Other observations

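Beside the genes above, Itgax, which encodes the integrin CD11c of alveolar macrophages and dendritic cells, was higher at day 9. It was at 16.2 ± 2.95 CPM at 30 min, 34.5 ± 10.7 at day 3 and 260 ± 100 at day 9. The rise from day 3 to day 9 was 7.55-fold (edgeR adjusted p = 0.00456), where none of the 8 genes described above passed. Of 8 alveolar macrophage markers Itgax was the 1 that passed between days 3 and 9, where 8.85% of all genes tested passed. The median log2 fold change of the list was -0.64. Of the markers that did not pass, Siglecf (0.81) and Marco (0.60) were positive, and the rest were negative, down to -1.23 for Chil3. The median of 8 dendritic cell markers was 0.04. Il7r, the receptor of interleukin-7 on T cells and some monocyte-derived cells, was at 11.4 ± 2.75, 9.81 ± 4.20 and 62.0 ± 26.8 CPM (edgeR adjusted p = 0.0104 between days 3 and 9). Of 7 tested markers of T and innate lymphoid cells, Il7r was the 1 that passed between days 3 and 9. The median log2 fold change of that list was 1.15 at day 9 against day 3 and -0.75 at day 9 against 30 min. The calls of Itgax and Il7r held without any 1 library (edgeR adjusted p up to 0.0201 and 0.0365), and both genes were picked after their values were seen.

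For the duplicated beta chain gene, whose separate level is uncertain because its sequence is so close to that of Csf2rb, there were 0.402 to 0.473 reads of Csf2rb2 per read of Csf2rb at 30 min, 0.436 to 0.503 at day 3, and 0.744, 0.528 and 0.634 in day 9 replicates 1, 3 and 4. The lowest day 9 library lay just above the highest day 3 library. No difference was tested.

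Il5, which encodes an eosinophil growth factor whose receptor uses the same beta chain, had 3 reads in all at 30 min, 52 at day 3 and 9 at day 9. Il3 had 0, 0 and 1 reads. For Csf2, Il3, Il5 and Csf3, the ligands of the GM-CSF family and G-CSF, no library exceeded 1.98 CPM.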
